A study of Mus musculus with 6 samples.

Results

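The cytosolic ribosomal protein genes of mouse leukaemia cells were described with and without induced loss of Chaf1b, the gene of one subunit of the histone chaperone CAF-1, which lays histones on new DNA. Members were chosen by symbol alone (Rpl or Rps with a number and at most one of the endings a, x or l, the 3 acidic stalk proteins Rplp0, Rplp1 and Rplp2, and Rpsa), which took 82 of the 35869 listed genes, 50 of the large and 32 of the small subunit. The 3 KO libraries came from leukaemic cells driven by retroviral MLL-AF9, with floxed Chaf1b alleles and the ligand-activated recombinase CreERT2, given β-estradiol to delete Chaf1b, and the 3 WT libraries from cells with the same floxed alleles, oncogene and recombinase given ethanol. RNA was taken at 48 h, polyadenylated RNA was sequenced, and expression was deposited as TPM, a transcript abundance that corrects for transcript length and scales each library to a common total. Both arms carry CreERT2, and only KO cells received its ligand, so effects of the ligand and of the deletion cannot be told apart. The labels speak of clones and do not say whether replicates were separate cultures, so the p-values cover only sample-to-sample spread, which could be technical.

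Ribosomal proteins clothe the ribosomal RNAs of the large and small subunits, and most are made in equal numbers because each ribosome holds a single copy of each. Their mRNAs are among the most abundant of growing cells and begin with a 5′ terminal oligopyrimidine (TOP) tract, a run of C and T read by the mTOR pathway through Larp1. In blood the family is known from Diamond-Blackfan anaemia and the 5q- syndrome of humans, in which loss of one allele of a ribosomal protein gene impairs red cell formation.

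Chaf1b itself (chr16:93883900-93906115) stood at 17.7, 14.4 and 14.2 TPM in the KO libraries, against 48.6, 49.0 and 50.6 TPM in the WT libraries. Chaf1b fell by 1.62 ± 0.09 (SE) on the log2(TPM + 1) scale, with an adjusted p of 0.0058 in limma and an exact two-sided permutation p of 0.1, the smallest that 3 against 3 libraries allow. Without KO replicate 3 its adjusted p was 0.07 in limma. All 8 leukaemia cell markers were detected. KO replicate 1 and WT replicate 1 stood apart from the other libraries of their groups (Mpo, the granule enzyme myeloperoxidase, was at 1017.6, 2311.4 and 2232.8 TPM in KO libraries and at 19.4, 127.6 and 83.8 TPM in WT libraries), and the main counts, medians and shares are given with and without both. Late granulocyte markers also differed, with 5 of 9 tested markers higher in KO and 0 lower, where 12.9% of all tested genes were higher. Ly6g, Ngp, Mmp8 and Mmp9 had their highest value in WT replicate 1, and Mmp9 had a log2 fold change of -0.48. These genes were named after their values were seen. The markers' summed level was 686.2, 1548.2 and 1380.8 TPM in KO libraries against 489.3, 119.0 and 150.6 TPM in WT libraries. Erythroid markers summed to between 22.5 and 34.9 TPM in KO libraries and between 13.1 and 21.5 TPM in WT libraries, lymphoid markers to between 26.7 and 32.2 TPM in KO libraries and between 17.0 and 20.8 TPM in WT libraries, with Cd4, Cd8a and Ncr1 at 0 in all 6 libraries.

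Ribosomal protein mRNAs took almost the same share of the transcriptome in KO and WT cells. They held 10.5%, 9.88% and 10.6% of all TPM in the KO libraries, against 10.5%, 10.9% and 10.9% in the WT libraries. The mean was 10.3 ± 0.395% in KO and 10.8 ± 0.219% in WT (SD, n = 3 each), and the groups overlapped, since KO replicates 1 and 3 lay above WT replicate 1. The KO mean was 0.961 of the WT mean, and the difference of -0.416 percentage points was -0.188 without KO replicate 2, the lowest library. Without KO replicate 1 and WT replicate 1 the difference was -0.646 percentage points, and the remaining KO and WT libraries did not overlap. The share is relative to all other transcripts, and in bulk RNA fewer cells of a type and less RNA per cell cannot be told apart. The part of the late granulocyte markers, whose sum was highest in that same KO replicate 2, was not tested.

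**Figure D1:**
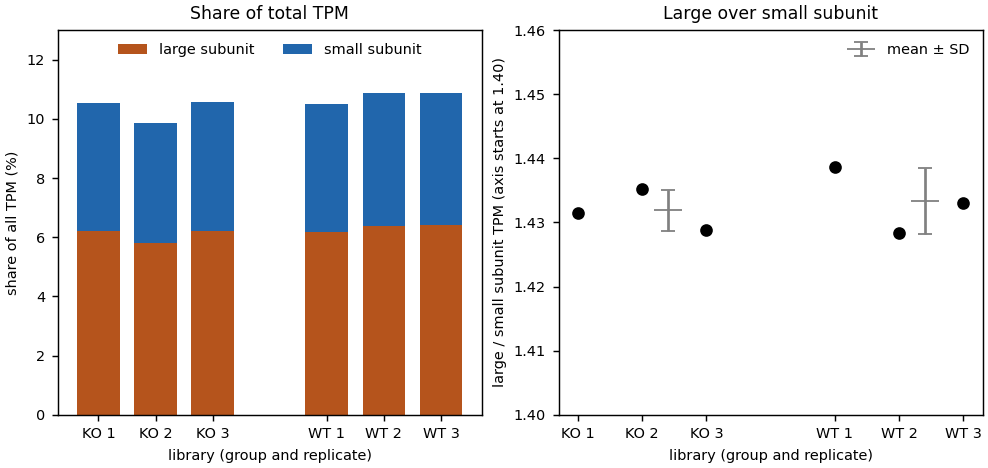
Share of all TPM held by ribosomal protein genes (left, percent) and the ratio of summed large to small subunit TPM (right) in each library, KO left of WT. Left bars start at 0 and stack the large and small subunits, and right points are libraries with grey marks for mean and SD on an axis that does not start at 0. The KO shares lie between 9.88% and 10.6% and the WT shares between 10.5% and 10.9%, and the ratio overlaps between the groups.

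The balance between the subunits differed by less than the spread of the libraries. Large subunit genes held 6.09 ± 0.228% of TPM in KO and 6.33 ± 0.121% in WT, and small subunit genes 4.25 ± 0.168% in KO and 4.42 ± 0.0983% in WT (SD, n = 3 each). The ratio of large to small subunit TPM was 1.4315, 1.4353 and 1.4289 in the KO libraries, against 1.4387, 1.4283 and 1.4330 in the WT libraries. The KO values lay inside the WT range, and the difference of the means was -0.0014, or 0.0015 without KO replicate 1 and WT replicate 1.

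No ribosomal protein gene passed the test. Of the 82 members, 78 were tested, having reached 1 TPM in 3 or more libraries, and 0 of these 78 had an adjusted p under 0.05 in limma in either direction, while 19.0% of the 13575 tested genes did (6.11% lower and 12.9% higher in KO). At an unadjusted p under 0.05, 7 members were counted, all with lower values in KO, among them Rpl10a, Rpl36, Rplp2, Rps9, Rpl13a and Rpl4. That is 8.97% of the members, against 38.0% of all tested genes (16.6% of all tested genes when only those lower in KO are counted). Among the 2054 abundant genes, those averaging 100 TPM or more, 31.0% were lower at that unadjusted threshold and 19.6% passed the test (13.4% lower and 6.18% higher). Without KO replicate 1 and WT replicate 1, 12 of 78 members were called lower. That fit called 27.3% of all genes and 922 of the 2054 abundant genes lower. WT replicate 1 was the lowest WT library for 62 of 78 members, against 6272 of the 13575 tested and 1011 of the 2054 abundant genes. Quantile normalization called 2 members lower, Rplp2 and Rpl10a, and 12.7% of all genes. The count was 3 without KO replicate 1 (11.9% of all genes lower) and 1 without WT replicate 1 (14.2%). The 12 members called without both first replicates included Rplp2, Rpl13, Rpl4, Rps27l, Rpl29, Rpl14, Rpl3, Rpl24, Rps2, Rpl10a and Rpl36.

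The differences were small and mostly of one sign. The median log2 fold change of the 78 members was -0.063, against 0.0065 over all tested genes and -0.071 over the abundant genes above 100 TPM. In 69 members the value was below 0 (42 of 47 large and 27 of 31 small subunit genes), or 88.5% against 48.9% of all tested and 67.1% of abundant genes. KO and WT values did not overlap, with KO lower, in 22 members (28.2%, against 19.5% of all tested and 34.2% of abundant genes). In 0 members did they separate with KO higher, as in 23.4% of all tested and 12.9% of abundant genes. The median was -0.030 without KO replicate 2 and -0.09 without KO replicate 1 and WT replicate 1. The KO mean was between 88.8% and 102% of the WT mean in the 77 members with a mean of at least 20 TPM, and their 95% intervals in limma together ran from -0.32 to 0.14 on the log2 scale.

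**Figure D2:**
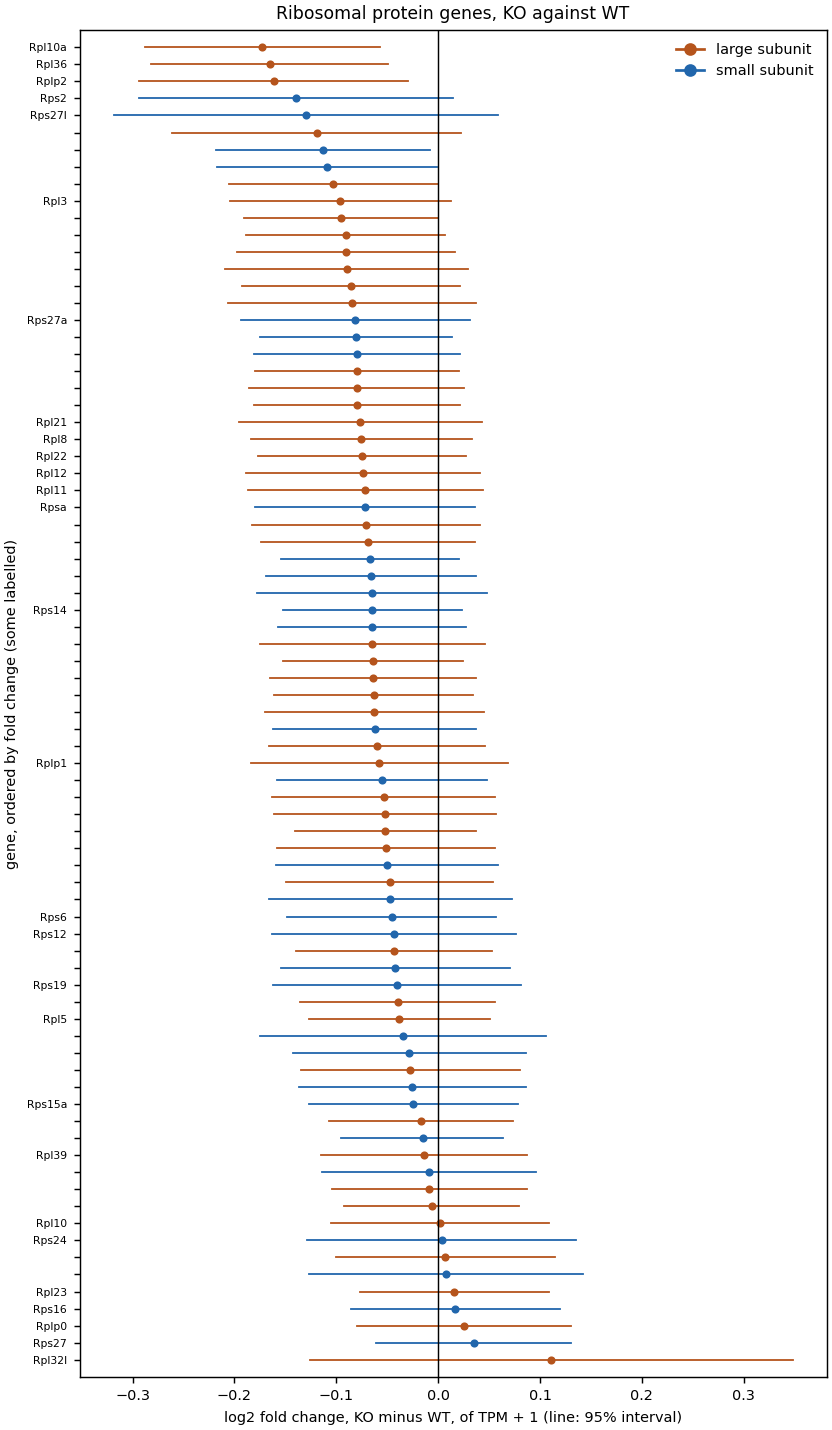
Log2 fold change, KO minus WT on the log2(TPM + 1) scale, of each tested ribosomal protein gene with its 95% interval from limma, large and small subunit in different colours and some genes labelled. Most points lie just below 0, the lowest is Rpl10a at -0.17, and 0 of 78 had an adjusted p under 0.05.

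The genes at the ends of this range are shown with their start regions. Rpl10a, a protein of the flexible L1 stalk where tRNA leaves the ribosome (chr17:28328471-28331033), stood at 859.4, 775.1 and 833.5 TPM in the KO libraries, against 925.4, 937.9 and 916.5 TPM in the WT libraries. Every KO value was below every WT value, with a log2 fold change of -0.17 ± 0.05 (SE) and an adjusted p of 0.052. Rpl36, a large subunit protein, stood at 638.6, 575.1 and 605.9 TPM in KO libraries, against 686.7, 682.8 and 670.1 TPM in WT libraries. It did not overlap either (log2 fold change -0.17, adjusted p 0.058). Rps2, a small subunit protein at the mRNA entry channel, was at 2649.7, 2300.4 and 2460.7 TPM in KO libraries and 2572.5, 2773.7 and 2810.7 TPM in WT libraries. Here KO replicate 1 lay above WT replicate 1, so the groups overlapped (log2 fold change -0.14, adjusted p 0.16). Without both first replicates Rps2 was at -0.23 (adjusted p 0.014). At the other end, Rps27 (small subunit) was at 546.6, 535.2 and 571.3 TPM in KO libraries and 534.1, 539.7 and 539.4 TPM in WT libraries, which overlap (log2 fold change 0.03, adjusted p 0.56). Rps16, a small subunit protein that reaches the tRNA sites, stood at 1980.5, 1907.1 and 2085.0 TPM in KO libraries, against 1951.8, 1962.9 and 1984.4 TPM in WT libraries. Rpl23, one of the large subunit proteins known to bind Mdm2, was at 1193.2, 1167.2 and 1247.4 TPM in KO libraries and 1180.6, 1189.5 and 1196.7 TPM in WT libraries. In both, KO replicate 2 was the lowest and KO replicate 3 the highest of the 6 libraries. Rpl32l had the largest positive log2 fold change (0.11, adjusted p 0.44) at 13.8, 11.7 and 11.2 TPM in KO libraries and 11.7, 11.8 and 10.2 TPM in WT libraries, far below every other tested member. No protein-coding transcript under this symbol was found in GENCODE M21, so its near-identical copies were not counted. Whether its reads come from other members was not tested.

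The windows below come from the RefSeq promoter table for GRCm38.p6 and run from 50 bases before to 30 bases after an annotated start. They belong to the genes with the lowest and the highest fold changes and are shown because the family is known for its pyrimidine start. Capitals mark the longest run of C and T that reaches past the 10th base before the annotated start. The first 4 genes had the lowest values in KO relative to WT and the last 4 the highest, among those with an entry and a mean of at least 20 TPM. For Rpl10a and Rps27l, which have more than one start in the table, the start with the longer run is given. In Rpl10a, Rps2 and Rps27l the start shown lies inside the gene span and not at its first base. The span is chr17:24718121-24721927 for Rps2 and chr9:66944624-66949522 for Rps27l.
Rpl10a, chr17:28328515-28328594, plus strand: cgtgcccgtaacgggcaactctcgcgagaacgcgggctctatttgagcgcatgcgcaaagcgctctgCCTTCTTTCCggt
Rplp2, chr7:141447601-141447680, plus strand: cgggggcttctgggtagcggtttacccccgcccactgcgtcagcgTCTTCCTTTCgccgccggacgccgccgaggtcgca
Rps2, chr17:24720013-24720092, plus strand: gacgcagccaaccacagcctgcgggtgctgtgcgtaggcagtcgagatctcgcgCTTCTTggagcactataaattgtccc
Rps27l, chr9:66946036-66946115, plus strand: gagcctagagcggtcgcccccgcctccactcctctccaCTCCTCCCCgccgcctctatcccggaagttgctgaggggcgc
Rps27, chr3:90213619-90213698, minus strand: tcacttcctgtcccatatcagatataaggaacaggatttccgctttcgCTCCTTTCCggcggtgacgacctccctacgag
Rplp0, chr5:115559417-115559496, plus strand: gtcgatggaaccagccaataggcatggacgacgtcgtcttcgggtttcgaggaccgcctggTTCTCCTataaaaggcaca
Rps16, chr7:28350639-28350718, plus strand: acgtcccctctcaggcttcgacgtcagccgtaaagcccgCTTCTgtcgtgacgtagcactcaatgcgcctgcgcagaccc
Rpl23, chr11:97782410-97782489, minus strand: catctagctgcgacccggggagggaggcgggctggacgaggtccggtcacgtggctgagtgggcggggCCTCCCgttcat

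The marked runs were 5 to 10 bases long, 10 in Rpl10a and Rplp2 and 9 in Rps27l and Rps27. They spanned the annotated start in Rplp2 and Rps27 and ended before it in Rps27l and Rps16. After the start, they began at base 18 in Rpl10a, 5 in Rps2, 12 in Rplp0 and 19 in Rpl23. The longest run is marked in any window and was not compared with other genes, so these runs are not shown to be TOP tracts. The letters CTTTC on the transcript strand within 50 bases of the start were found in 31 of the 58 tested members with an entry (53.4%), against 12.9% of tested genes and 14.6% of all genes in the table. The median log2 fold change was -0.065 in members with these letters and -0.047 in those without. CCGGAAG on either strand, within 250 bases before to 50 bases after the start, was in 24 members (41.4%, against 20.5% of tested and 9.93% of all genes). CTTTCC on either strand in the same window, which overlaps CTTTC, was in 30 members (51.7%, against 29.3% of all genes). TATAAA on either strand was in 7 members (12.1%, against 8.53% of tested and 15.7% of all genes). The median log2 fold change was -0.061 with and -0.064 without CCGGAAG, and -0.006 with and -0.064 without TATAAA. These matches describe letters in the windows and are not sites of binding.

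The 3 proteins of the acidic stalk, which recruits elongation factors, had fold changes of different sign. The 95% intervals in limma held both signs for Rplp0 (-0.080 to 0.130) and Rplp1 (-0.184 to 0.069). The Rplp0 value was -0.024 after quantile normalization and -0.0075 without KO replicate 3. Rplp0, the base of the stalk, was at 2814.8, 2714.5 and 2958.2 TPM in KO libraries and 2718.1, 2771.7 and 2847.4 TPM in WT libraries (log2 fold change 0.03, adjusted p 0.71). Rplp1 was at 2877.7, 2674.2 and 3038.6 TPM in KO libraries, against 2929.1, 2986.7 and 3014.1 TPM in WT libraries (log2 fold change -0.06, adjusted p 0.46). For both, KO values lay on either side of the WT values. Rplp2 was at 830.4, 736.7 and 801.0 TPM in KO libraries, against 910.1, 870.2 and 866.2 TPM in WT libraries, with no overlap (log2 fold change -0.16, adjusted p 0.082). As a percentage of the summed ribosomal protein TPM, Rplp2 was at 0.7877%, 0.7457% and 0.7568% in KO libraries, against 0.8669%, 0.8012% and 0.7951% in WT libraries. Rplp0 was at 2.6701%, 2.7476% and 2.7949% of that sum in KO libraries, against 2.5890%, 2.5520% and 2.6137% in WT libraries. On this scale the KO shares lay below the WT shares for Rplp2 and above them for Rplp0, as for 13.8% and 26.3% of all tested genes, and shares of a fixed sum cannot all move one way.

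Rpl5 and Rpl11, which with 5S RNA form the particle that can bind Mdm2 and stabilise p53, overlapped between the groups. Rpl5 was at 748.7, 713.6 and 743.8 TPM in KO libraries and 747.6, 756.3 and 760.7 TPM in WT libraries (log2 fold change -0.04, adjusted p 0.49). Rpl11 was at 884.7, 823.0 and 891.9 TPM in KO libraries and 878.0, 923.2 and 930.2 TPM in WT libraries (log2 fold change -0.07, adjusted p 0.31). The values of KO replicates 1 and 3 lay at or near those of WT replicate 1 in both genes. Of 6 tested genes of that sensing pathway, 0 passed the test and 1 (Sesn2) had an unadjusted p under 0.05 in limma. Without both first replicates 2 were lower and 1 higher, where 55.8% of all tested genes were called. Trp53, which encodes p53, was at 115.8, 112.9 and 112.7 TPM in KO libraries, against 116.4, 129.7 and 129.9 TPM in WT libraries (adjusted p 0.13), and its target Cdkn1a at 119.5, 133.7 and 125.4 TPM in KO libraries, against 126.5, 98.8 and 97.0 TPM in WT libraries (adjusted p 0.17).

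Large subunit proteins of the catalytic core and exit tunnel came next. Rpl3, next to the peptidyl transferase centre, was at 1113.4, 1020.3 and 1084.5 TPM in KO libraries, against 1121.8, 1151.3 and 1165.0 TPM in WT libraries. Its groups did not overlap (log2 fold change -0.10, adjusted p 0.17). Rpl10, which joins the large subunit late in its assembly, was at 2460.1, 2398.6 and 2527.1 TPM in KO libraries and 2340.0, 2517.7 and 2523.3 TPM in WT libraries, with a log2 fold change of 0.0015. Rpl39, at the exit tunnel, was at 1360.1, 1271.6 and 1379.2 TPM in KO libraries and 1352.6, 1343.9 and 1350.7 TPM in WT libraries. The groups of both genes overlapped.

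Small subunit genes with known roles in blood disease or signalling also overlapped, apart from Rps14. Rps14, the gene of the human 5q- syndrome, was at 1852.1, 1765.2 and 1869.6 TPM in KO libraries, against 1924.3, 1898.6 and 1914.7 TPM in WT libraries (log2 fold change -0.06, adjusted p 0.24), each KO value below each WT value. Rps19, the gene most often mutated in Diamond-Blackfan anaemia, was at 628.4, 574.9 and 631.7 TPM in KO libraries and 610.9, 639.5 and 635.2 TPM in WT libraries (log2 fold change -0.04, adjusted p 0.60). Rps6, the substrate of the S6 kinases, was at 1478.6, 1404.5 and 1458.2 TPM in KO libraries and 1434.6, 1510.1 and 1537.4 TPM in WT libraries. Rpsa, also known as the laminin receptor, was at 1731.4, 1616.6 and 1760.6 TPM in KO libraries and 1747.4, 1796.1 and 1822.4 TPM in WT libraries. In each of these 4 genes KO replicate 2 was the lowest library.

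A few ribosomal proteins are made as fusions with ubiquitin or a ubiquitin-like protein. Rps27a was at 849.5, 789.1 and 841.2 TPM in KO libraries, against 841.6, 887.0 and 894.6 TPM in WT libraries (log2 fold change -0.08, adjusted p 0.25), overlapping at WT replicate 1. Fau does not carry an Rpl or Rps symbol and belongs to 7 further genes added for completeness, of which 0 passed the test in limma and 1 had an unadjusted p under 0.05. Fau, the source of Rps30, was at 651.7, 593.6 and 639.8 TPM in KO libraries, against 697.3, 652.6 and 657.8 TPM in WT libraries, without overlap (log2 fold change -0.09, adjusted p 0.24). Among the others, Rps3a1 had a log2 fold change of -0.018, Rack1 of -0.052, Rpl36al of -0.0099 and Rpl7l1 of -0.083, with overlapping groups. Without both first replicates Rpl7l1 was at -0.13 (adjusted p 0.015).

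Paralogues, some of which can replace one another in the ribosome, were compared by their ratio within each library. Rpl22 was at 67.1, 64.4 and 66.0 TPM in KO libraries, against 69.7, 69.2 and 69.3 TPM in WT libraries (log2 fold change -0.08, adjusted p 0.24), the lowest level of any member above 20 TPM. Its paralogue Rpl22l1, whose mRNA Rpl22 is known to repress in mice, was at 313.1, 305.5 and 313.1 TPM in KO libraries and 275.6, 312.3 and 316.7 TPM in WT libraries (log2 fold change 0.05, adjusted p 0.63). The ratio of Rpl22l1 to Rpl22 was 4.67, 4.74 and 4.74 in KO libraries, against 3.95, 4.51 and 4.57 in WT libraries, with no overlap, and WT replicate 1 was far below the rest. Rps27l, a paralogue of Rps27 known as a p53 target, was at 189.4, 173.5 and 182.2 TPM in KO libraries and 178.2, 212.8 and 207.1 TPM in WT libraries (log2 fold change -0.13, adjusted p 0.27). Without both first replicates Rps27l was at -0.24 (adjusted p 0.0094). Its ratio to Rps27 was 0.347, 0.324 and 0.319 in KO libraries and 0.334, 0.394 and 0.384 in WT libraries, which overlapped through WT replicate 1. The ratio of Rpl36al to Rpl36a was 0.757 in KO and 0.758 in WT.

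The tissue-restricted paralogues were at or near 0. Rpl39l and Rpl10l, known from testis, and Rpl3l, known from muscle, missed the 1 TPM filter, as did Rps4l. Rpl39l and Rps4l were listed at 0 in all 6 libraries. Rpl10l was at 0, 0.1 and 0.1 TPM in KO libraries and listed at 0 in all WT libraries, and Rpl3l at 0.5, 0.8 and 0.7 TPM in KO libraries and 0.7, 0.3 and 0.4 TPM in WT libraries.

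The mRNA levels of the members ranged widely. Means over the 6 libraries of the 77 members above 20 TPM (46 large and 31 small subunit genes) ranged 43.2-fold, between 67.6 TPM for Rpl22 and 2920 TPM for Rplp1, with a median of 1181 TPM. The median was 1162 TPM for large and 1471 TPM for small subunit genes. After Rplp1 and Rplp0, the highest were Rpl12, Rps12 and Rpl8. Rpl8, a large subunit protein, was at 2670.4, 2466.7 and 2649.2 TPM in KO libraries and 2653.4, 2750.3 and 2798.9 TPM in WT libraries. After Rpl32l and Rpl22, the lowest were Rps24, Rps15a and Rpl21, and Rps24 was at 113.1, 107.3 and 114.5 TPM in KO libraries and 105.2, 114.0 and 115.0 TPM in WT libraries. These levels depend on how reads shared with near-identical copies were counted, a setting not named in the sources used here. Copies with at least 95% identity over at least 80% of the coding sequence numbered 5 or more for 43 of the 77 members and 1 to 4 for 30, and 4 members had none. Rpl21 had 57 such copies at 182 TPM and Rps2 had 23 at 2595 TPM. Across the 77 genes the number of copies had a Spearman correlation of -0.044 with the mean level and of 0.071 with the fold change, as a description. Coding length had 0.293 with the level and -0.258 with the fold change.

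**Figure D3:**
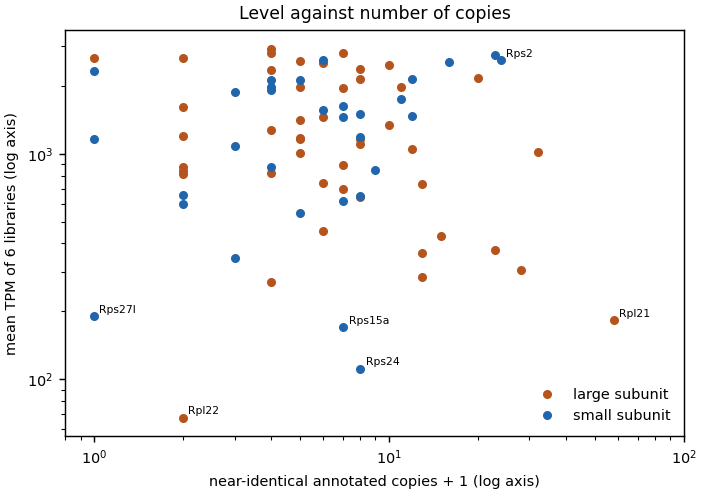
Mean TPM over 6 libraries of 77 ribosomal protein genes (log axis) against 1 plus the number of near-identical copies elsewhere in the GENCODE M21 transcripts (log axis), 1 point per gene. The Spearman correlation was -0.044, Rpl21 has 57 copies at 182 TPM, and Rps2 has 23 at 2595 TPM.

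The members moved together from library to library. KO replicate 2 was the lowest of the 6 libraries for 72 of 78 members (92.3%), against 14.7% of all tested and 30.9% of abundant genes, 6 of 7 added genes and 13 of 19 other TOP mRNAs. In addition, all 77 members above 20 TPM lay below their own mean there, with a median log2 deviation of -0.098. The median deviation was -0.0006 in KO replicate 1 and 0.003 in KO replicate 3, against -0.004, 0.045 and 0.048 in WT replicates 1, 2 and 3. All tested genes had a median deviation of 0.020 in KO replicate 2. The median coefficient of variation over the 6 libraries was 3.79% per member, against 11.3% over all tested genes and 7.84% over abundant genes. Median levels were 1176 TPM for the 78 members, 15.6 TPM for all tested and 205 TPM for abundant genes. These sets were therefore not matched for level. As a share of the summed ribosomal protein TPM, the members' median coefficient of variation was 1.74%.

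**Figure D4:**
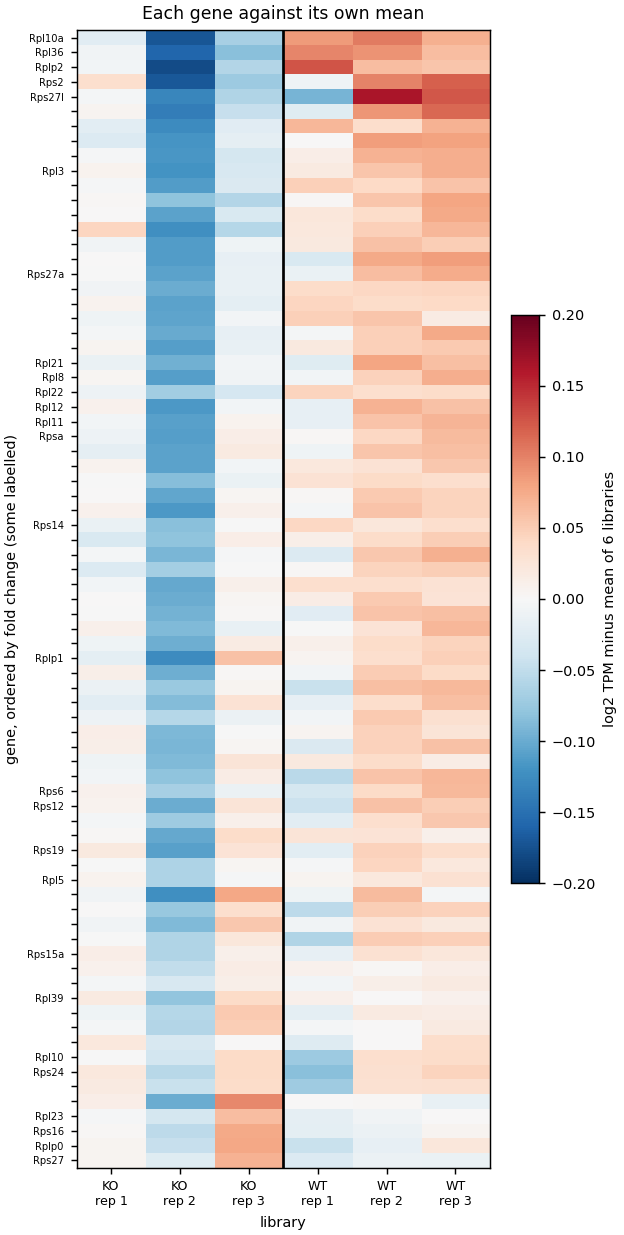
Log2 deviation of each ribosomal protein gene from its own mean over the 6 libraries, genes in rows (some labelled) and libraries in columns with KO left of WT. All 77 genes averaging 20 TPM or more are below their mean in KO replicate 2.

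Within the summed ribosomal protein TPM, members separated the groups no more often than tested genes did. In 10 of 77 every KO share was below every WT share, and in 10 every KO share was above, where 13.8% and 26.3% of all tested genes did so on the same scale. The mean share in KO differed from that in WT by -7.70% for Rpl10a, -7.25% for Rpl36 and -7.03% for Rplp2. The difference was 6.61% for Rps27, 5.90% for Rplp0, 5.30% for Rps16 and 5.23% for Rpl23. On this scale, limma called 0 of 78 members and 13.6% of all tested genes, and the members' median log2 fold change was -0.0057.

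By position, the members lay on 19 chromosomes, 14 of the 77 on chromosome 7 (18.2%, against 7.93% of tested genes), with a median log2 fold change of -0.066 there. The 6 members on chromosome 17 (7.79%, against 5.44% of tested genes) had a median of -0.11, the lowest of the 19 chromosomes. They include Rpl10a, Rpl36 and Rps2, named above as members of lowest fold change. Differences between chromosomes were not tested.

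Several genes that work with ribosomal proteins passed the test, each with lower values in KO. Their lists are set beside the 0 of 78 members called and the 6.11% of all tested genes called lower (13.4% of abundant genes). The lists were chosen with earlier results of these data known. Among 19 other mRNAs with a TOP tract, 4 were lower and 0 higher (median log2 fold change -0.19). Eef1g, a subunit of elongation factor eEF1, fell to 1266.5, 1088.5 and 1147.2 TPM in KO libraries, against 1369.8, 1463.5 and 1437.7 TPM in WT libraries (log2 fold change -0.29, adjusted p 0.031). Pabpc1, the cytosolic poly(A) binding protein, fell to 740.8, 681.4 and 692.9 TPM in KO libraries, against 834.6, 779.2 and 794.6 TPM in WT libraries (log2 fold change -0.19, adjusted p 0.046). Both were in the abundance range of the ribosomal protein genes. Of 9 TOP host RNAs of small nucleolar RNAs, 2 were lower and 0 higher (median -0.25), among them Snhg6 at 289.0, 241.4 and 246.3 TPM in KO libraries, against 321.7, 338.6 and 325.5 TPM in WT libraries (adjusted p 0.030). WT replicate 1 was the lowest WT library for all 9 of these RNAs, and for some it lay below the KO libraries, as for Gas5 at 304.8, 277.0 and 281.0 TPM in KO libraries and 227.7, 405.1 and 379.0 TPM in WT libraries (adjusted p 0.56). Gas5 was chosen after its values were seen.

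Among 15 chaperones and assembly partners of ribosomal proteins, 6 were lower and 0 higher in KO (median -0.26). Nob1, the nuclease that matures the small subunit RNA, fell to 151.4, 127.7 and 128.1 TPM in KO libraries, against 173.1, 189.6 and 181.4 TPM in WT libraries (log2 fold change -0.42, adjusted p 0.023). Ltv1, which accompanies small subunit assembly, fell to 61.3, 57.3 and 56.4 TPM in KO libraries, against 69.1, 80.6 and 76.7 TPM in WT libraries (log2 fold change -0.36, adjusted p 0.025). Tsr2, the chaperone of Rps26, fell to 8.10 ± 0.458 TPM in KO, against 10.8 ± 0.971 TPM in WT (SD, n = 3 each, log2 fold change -0.37, adjusted p 0.033). In these genes every KO value was below every WT value.

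Of 12 genes that control the transcription or translation of ribosomal protein mRNAs, 2 were lower and 0 higher (median -0.17). Myc, a transcription factor that drives ribosome production, fell to 88.4, 70.5 and 72.7 TPM in KO libraries, against 109.2, 105.7 and 104.7 TPM in WT libraries (log2 fold change -0.47, adjusted p 0.024). Larp1, which binds TOP tracts, fell to 54.7, 46.2 and 46.5 TPM in KO libraries, against 59.3, 64.0 and 63.3 TPM in WT libraries (log2 fold change -0.34, adjusted p 0.036). The 77 mitochondrial ribosomal protein genes, which serve the separate ribosome of mitochondria, had 17 lower and 0 higher (22.1%, median -0.19). Their difference from the cytosolic set was not tested. Calls over the whole table depended on the libraries used. In limma 2575 of all tested genes were called with 6 libraries, 109 when KO replicate 2 was left out, 0 for KO replicate 3, 25 for WT replicate 2 and 15 for WT replicate 3, but 3682 when KO replicate 1 was left out and 4850 for WT replicate 1.

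Without KO replicate 1 and WT replicate 1 the related lists held more calls. That fit called 27.3% of all genes, 922 of the 2054 abundant genes and 12 of the 78 members lower. There, 14 of 19 other TOP mRNAs were lower (median log2 fold change -0.23), 9 of 9 TOP host RNAs (median -0.48), 13 of 15 chaperones and assembly partners (median -0.41, with 1 higher), 9 of 12 control genes (median -0.24) and 66 of 77 mitochondrial ribosomal protein genes (median -0.27). This comparison over lists was added after seeing the data.

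**Figure D5:**
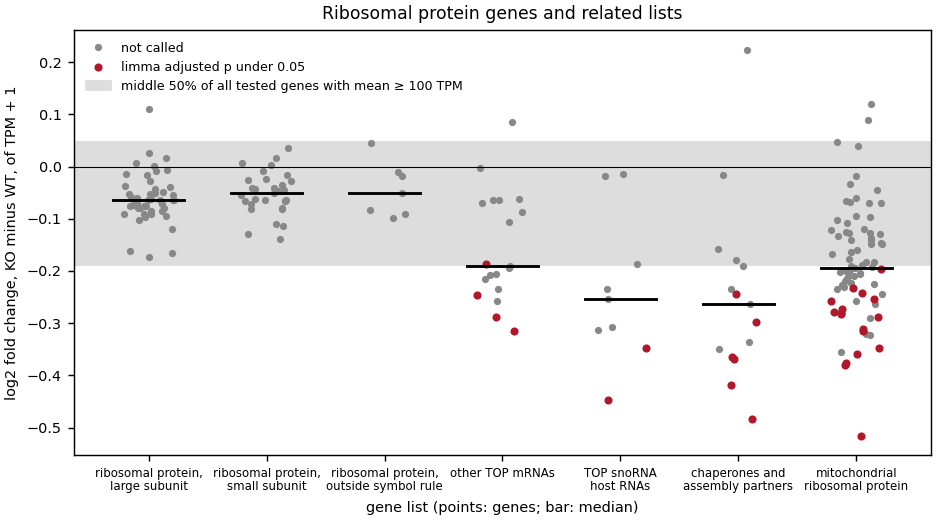
Log2 fold change, KO minus WT, of tested genes in each list, 1 point per gene (red where limma's adjusted p was under 0.05) with the median as a bar and the middle 50% of abundant genes as a grey band. The large and small subunit genes have medians of -0.064 and -0.051 with 0 called, and the mitochondrial set has a median of -0.19 with 17 of 77 called lower.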

How the data were processed

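Deposited values were TPM per gene symbol, made by the authors from paired-end reads of 100 bases (about 120 M reads per sample, per the labels). The submitters' processing notes name STAR 2.6.1e, featureCounts 1.6.2, cutadapt 1.9.1 and Trim Galore 0.4.2, with build mm10. No source used here names the strand or multimapper settings, or the meaning of a replacement note in the header of the first WT library. TPM keeps no depth, so counting error is unknown, and values are relative to each library's total. Genes reaching 1 TPM in 3 or more of the 6 libraries (13575) were tested on log2(TPM + 1) with limma 3.58.1 in R 4.3.3 (genotype only, eBayes with trend, two-sided, Benjamini-Hochberg over all 13575), calling an adjusted p under 0.05. Copies were found with blastn 2.17.0 against GENCODE M21. Positions and promoters came from RefSeq for GRCm38.p6 (61 members had a promoter entry). Members and lists were chosen with earlier results of these data known. Named genes are members with known roles, those at the ends of fold change and level, those missing the filter, the added genes, and from each related list some of the smallest adjusted p. The 7 genes below an unadjusted 0.05 and those called without both first replicates, where outside that rule, were named after their values were seen. Some genes that these rules select are not reported here. Alternatives changed the pseudocount, filter, scaling, trend, block and libraries.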

Additional observations from a re-analysis of the deposited data

How the results depend on the processing

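The count of 0 members called was also 0 with other pseudocounts, filters and scalings and without the variance trend, except quantile normalization, which called 2 members lower (Rplp2 and Rpl10a, with 12.7% of all genes called lower). Leaving out a library gave between 0 and 3 members: 3 without KO replicate 1 (Rplp2, Rpl10a and Rpl36, with 11.9% of all genes called lower), 1 without WT replicate 1 (Rps27l, with 14.2%), and 0 without each of the others. It was 12 without KO replicate 1 and WT replicate 1 together, with 27.3% of all genes and 922 of the 2054 abundant genes called lower. The cause was not tested. The labels do not say whether the replicate numbers pair the libraries. Deviations of same-numbered libraries from their group means correlated at -0.199, -0.145 and -0.164, and those of differently numbered libraries between -0.206 and 0.232. These cannot decide on pairing, since deviations from a shared group mean depend on each other. A fit with the replicate number as a block called 0 members and 333 of all genes, against 2575. The median log2 fold change was between -0.079 and -0.030 with a library left out, -0.09 without both first replicates, and -0.0057 after scaling to the ribosomal protein total, a scaling added after seeing the data, which removes the shared shift by construction. The share difference was between -0.542 and -0.188 percentage points and the ratio difference between -0.0039 and 0.0013 with a library left out. With a library left out, Chaf1b had a log2 fold change between -1.72 and -1.57 (the smaller without KO replicate 3), and it was at -1.42 with a pseudocount of 5 and -1.73 without both first replicates.

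Among the named members and added genes, signs turned for some with values near 0. With a library left out, the log2 fold change ran between -0.034 and 0.020 for Rpl10, -0.037 and 0.022 for Rpl39, -0.0075 and 0.055 for Rplp0, -0.064 and 0.0038 for Rps19, -0.017 and 0.047 for Rps16, -0.011 and 0.037 for Rpl23, -0.037 and 0.032 for Rps24, -0.049 and 0.0034 for Rps3a1, -0.018 and 0.082 for Rpl22l1, and -0.020 and 0.0047 for Rpl36al. Without both first replicates it was -0.034 for Rpl10, -0.046 for Rps24, -0.024 for Rpl22l1, -0.081 for Rps19, -0.051 for Rps3a1 and -0.023 for Rpl36al. Quantile normalization gave -0.024 for Rplp0, 0.0069 for Rps19, -0.017 for Rpl23 and 0.025 for Rps15a. Median-ratio scaling gave -0.0039 for Rpl10 and -0.0018 for Rps24, and a total without ribosomal protein genes gave -0.0052 for Rpl10 and -0.0031 for Rps24.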
